A study of Homo sapiens with 12 samples.

Results

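The DNA repair and Fanconi anaemia genes described here are 41 genes taken by symbol: each row of the deposited gene table whose gene name was on a list of repair genes. They made up 41 of the 58302 rows. By pathway, 13 belong to homologous recombination, 10 are Fanconi anaemia genes, 6 carry damage signalling, 5 act in end joining, 3 in base excision and repair of single-strand breaks, and 2 in mismatch repair. The remaining 2 are MGMT, which removes alkyl groups from guanine, and ERCC1, part of a nuclease of nucleotide excision repair. Of the 41, 40 passed the filter on low counts, and MGMT had 0 counts in all 12 libraries.

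The libraries held polyadenylated RNA of U251 and U87, human glioma cell lines kept in culture, with and without artesunate, a derivative of the antimalarial compound artemisinin. There were 4 groups of 3 libraries: U251 with 180 µM artesunate, U251 control, U87 with 24.08 µM artesunate and U87 control. All samples are labelled day 9, and the treated ones 24 h of treatment. The control label gives culture medium (10%DMEM), and a solvent control is not stated in the sources used here. The text on RNA extraction names artemisinin where the treatment label names artesunate. Because the dose differed between the lines, dose and line cannot be told apart in any comparison of their responses. Nothing says that the 3 libraries of a group came from separate cultures, so the p-values measure the spread between these samples, which may be technical. In bulk RNA, fewer cells of a type and less RNA per cell cannot be told apart. The question the design addresses is how artesunate changed the transcriptome of each line.

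Cells mend breaks across both strands either by end joining, in which the Ku proteins and DNA-PK hold and religate the ends, or by homologous recombination, in which BRCA1, BRCA2 and their partners help to copy an intact sister. The Fanconi anaemia proteins handle crosslinks between strands: a core complex adds ubiquitin to FANCD2 and FANCI, and recombination completes the repair. ATM and ATR are the kinases that sense damage and stalled forks and act through CHEK2 and CHEK1. Many of these genes are transcribed most in cells that copy their DNA, and in glioma the level of MGMT is known for its bearing on alkylating drugs.

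Total counts per library were between 13631985 and 17314284. The 2 lines separated along the first principal component (79.6% of the variance) and artesunate from control in U87 along the second (10.8%), and log2 expression of replicates correlated at 0.972 to 0.987. On the second component U87 artesunate 2 lay at 39.21, nearer the U87 controls (-74.25 to -60.66) than U87 artesunate 1 (83.22) and 3 (73.78). The lowest correlations were those of U87 with artesunate (0.972 to 0.981). Of 10 glioma markers, 9 reached 1 CPM (a gene's reads relative to its library's TMM-scaled total) in both groups of U251 and 7 in both groups of U87, where SOX2, a neural stem cell factor, was at 0. Leukocyte markers summed to between 0.219 and 1.34 CPM in all libraries, with CD3E, AIF1 and TYROBP among those at 0. Endothelial markers summed to 59.3 to 67.9 CPM in U251 with artesunate and 94.6 to 99.9 CPM in U251 controls, and to 21.2 to 31.3 CPM in U87 with artesunate and 40.7 to 46.2 CPM in U87 controls. Of these 5 markers, KDR alone reached 1 CPM in all 4 groups. CDH5 did so in U251 with artesunate, TEK in both groups of U87, and PECAM1 in U87 with artesunate. Neuronal markers summed to 142 to 226 CPM in U251 with artesunate and 142 to 246 CPM in its controls, and to 55.7 to 64.3 CPM in U87 with artesunate and 35.0 to 49.6 CPM in its controls. Of these 5 markers, MAP2, SNAP25 and SYT1 reached 1 CPM, in every group. Epithelial markers summed to 19.9 to 26.7 CPM in U251 with artesunate and 23.1 to 37.2 CPM in its controls. In U87 they summed to 2.41 to 5.33 CPM with artesunate and 6.06 to 7.07 CPM in controls. Oligodendrocyte markers summed to between 0.337 and 0.933 CPM in all libraries. The part of other cell types in the results was not tested.

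The promoters of the 3 members with the largest called falls and the 3 with the largest called rises in U87 are shown, because these 6 genes mark the ends of the response described next. Each is a 300-base window from 250 bases before to 50 after the RefSeq start, read 5′ to 3′ along the gene's strand in GRCh38.p14. XRCC1 is at chr19:43575478-43575777 (minus strand), FANCE at chr6:35452088-35452387 (plus), FANCA at chr16:89816598-89816897 (minus), BRCA2 at chr13:32315258-32315557 (plus), ATM at chr11:108222817-108223116 (plus) and PMS2 at chr7:6009057-6009356 (minus). Capitals mark letters searched for on both strands: TTTCCCGC, TTTGGCGC, TTTCGCGC and TTTGCCGC (E2F letters), TTTGAA (the CHR of mitotic genes), CCAAT, and CGCATGCG (NRF1 letters), with no overlap between matches in these 6 windows.
XRCC1: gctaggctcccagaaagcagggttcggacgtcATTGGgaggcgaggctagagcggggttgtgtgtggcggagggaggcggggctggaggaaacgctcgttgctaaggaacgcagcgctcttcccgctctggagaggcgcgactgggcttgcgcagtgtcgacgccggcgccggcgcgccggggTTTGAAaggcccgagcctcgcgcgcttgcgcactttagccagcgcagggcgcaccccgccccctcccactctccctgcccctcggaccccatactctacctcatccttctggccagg
FANCE: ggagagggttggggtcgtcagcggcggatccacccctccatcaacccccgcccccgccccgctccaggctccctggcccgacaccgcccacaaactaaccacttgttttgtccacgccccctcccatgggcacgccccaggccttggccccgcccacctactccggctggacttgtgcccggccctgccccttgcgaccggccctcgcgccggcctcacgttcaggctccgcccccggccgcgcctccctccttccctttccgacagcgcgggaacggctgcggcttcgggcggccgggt
FANCA: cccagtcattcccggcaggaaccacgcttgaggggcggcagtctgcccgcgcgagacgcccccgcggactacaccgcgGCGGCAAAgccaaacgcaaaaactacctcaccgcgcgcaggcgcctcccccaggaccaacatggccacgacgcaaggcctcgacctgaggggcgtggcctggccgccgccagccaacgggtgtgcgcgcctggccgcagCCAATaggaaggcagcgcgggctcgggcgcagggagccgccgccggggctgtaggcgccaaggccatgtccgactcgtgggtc
BRCA2: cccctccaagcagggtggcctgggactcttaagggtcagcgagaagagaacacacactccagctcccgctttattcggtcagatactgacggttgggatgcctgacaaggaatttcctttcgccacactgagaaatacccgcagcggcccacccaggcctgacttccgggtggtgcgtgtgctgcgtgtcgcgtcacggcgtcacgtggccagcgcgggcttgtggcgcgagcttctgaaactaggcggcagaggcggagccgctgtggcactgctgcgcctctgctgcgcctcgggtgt
ATM: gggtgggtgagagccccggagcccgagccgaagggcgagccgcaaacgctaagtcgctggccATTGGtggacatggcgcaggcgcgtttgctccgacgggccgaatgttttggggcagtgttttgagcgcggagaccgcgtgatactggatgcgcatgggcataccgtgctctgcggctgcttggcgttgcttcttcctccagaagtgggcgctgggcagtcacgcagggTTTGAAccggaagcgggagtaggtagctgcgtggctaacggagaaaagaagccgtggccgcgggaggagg
PMS2: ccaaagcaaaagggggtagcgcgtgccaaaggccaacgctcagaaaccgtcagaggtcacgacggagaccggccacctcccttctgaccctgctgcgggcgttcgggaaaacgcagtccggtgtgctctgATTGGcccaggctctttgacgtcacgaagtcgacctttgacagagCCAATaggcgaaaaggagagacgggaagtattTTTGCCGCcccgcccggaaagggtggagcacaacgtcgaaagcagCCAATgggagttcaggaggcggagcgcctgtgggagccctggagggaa
Among the genes that fell, FANCA held E2F letters and a CCAAT, XRCC1 held the CHR letters and a CCAAT, and FANCE held none of them. Among the genes that rose, PMS2 held E2F letters and 3 CCAAT matches, ATM held the CHR letters and a CCAAT, and BRCA2 held none. A window was matched for 37 of the 41 members. E2F letters stood in 8 of these 37 (21.6%), against 3.33% of all 27305 promoters in the table. CCAAT stood in 48.6% of the members' windows and 35.7% of all, the CHR letters in 10.8% and 15.4%, and the NRF1 letters in 2.7% and 2.19%. Of the 10 matched members that fell in U251, 1 held E2F letters, and of the 19 that fell in U87, 5 did.

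In U251, 12 of the 40 tested members fell with artesunate and none rose. They were crosslink repair genes (FANCD2, FANCI, FANCL), recombination genes (BRCA1, BARD1, BRIP1, BLM, RAD54L), checkpoint kinases (ATR, CHEK1, CHEK2) and the end-joining kinase subunit PRKDC. Over all 17150 genes tested, 4.26% fell and 4.09% rose, 8.34% in all. A gene was called where the Benjamini-Hochberg adjusted p of edgeR's quasi-likelihood test, over all genes tested, was under 0.05. The falls were small: no member changed at least 2-fold, against 0.408% of all genes that fell and 0.945% that rose as far, and the log2 fold changes of the 12 were between -0.81 and -0.31. The median over the 40 members was -0.30, against 0.00 over all genes tested, and 35 of 40 had a negative value, against 50% of all genes. All 3 treated libraries lay below all 3 controls for 22 members, against 18.4% of all genes, and above them for 1, ERCC1, against 18.5%. No member had a positive value at an unadjusted p under 0.05, and DESeq2 called no rise either.

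In U87, 21 members fell with artesunate and 7 rose, in a line where 29.2% of all genes fell and 29.2% rose, 58.3% in all. The base excision and single-strand break genes XRCC1, PARP1 and OGG1, 7 of 10 Fanconi genes and 8 of 13 recombination genes were among those that fell. At least 2-fold falls were called for 9 members, against 17.0% of all genes, and at least 2-fold rises for none, against 11.5%. The 7 that rose were BRCA2, ATM, PMS2, LIG4, NBN, XRCC4 and PALB2. The median over the 40 members was -0.34, against 0.00 over all genes tested, and 29 of 40 values were negative, against 48.4%. The 3 treated libraries lay below the 3 controls for 21 members and above them for 8, against 31.2% of all genes in each direction. BARD1, BRCA1, BRIP1, CHEK2, FANCD2, FANCI, PRKDC and RAD54L fell in both lines, 8 genes that are 8 of the 12 that fell in U251 and 8 of the 21 that fell in U87. No member was called in opposite directions, and 8 were called in neither line: FANCB, FANCM, MSH6, RAD50, RAD51AP1, RAD51C, XRCC5 and XRCC6. The shares of all genes that fell in both lines, went in opposite directions or were called in neither were not taken, so these overlaps have no background beside them.

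**Figure D1:**
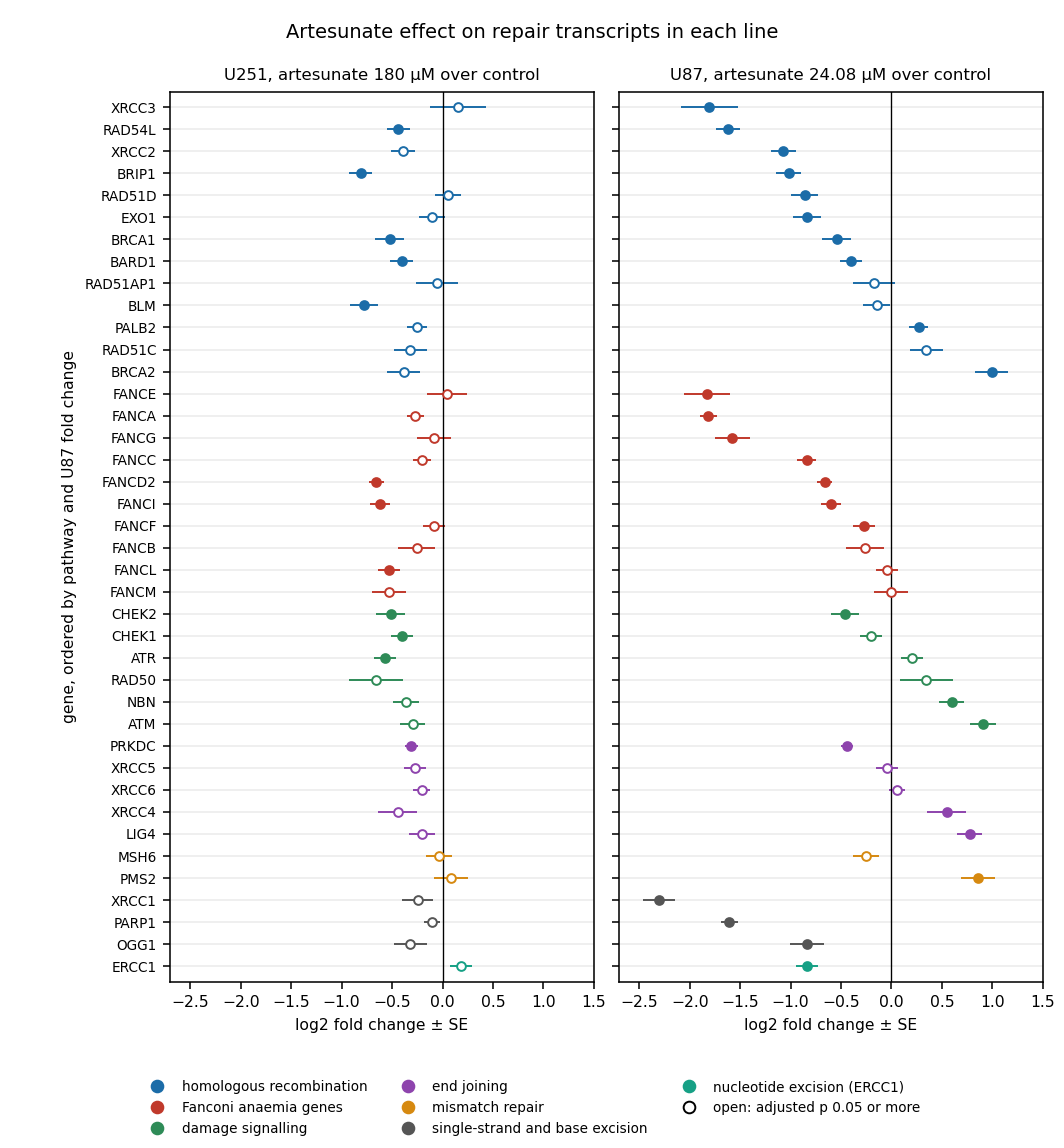
Log2 fold change with artesunate over control (x axis, ± SE from the edgeR fit) for the 40 tested repair genes in U251 (left) and U87 (right), coloured by pathway and ordered within each pathway by the U87 value; filled points were called. In U251 the 12 filled points all lie left of 0, while in U87 21 lie left and 7 right, with XRCC1 lowest at -2.31.

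In U87 the fold changes of all genes followed the base composition of the transcript, and the 7 rises and 21 falls have to be read beside that trend. In U251 the trend had the opposite sign, and its 12 falls have to be read beside it too. Spearman's rho between the log2 fold change and the GC content of the longest transcript was -0.63 over 17089 genes in U87 and 0.41 in U251. Over the 40 members it was -0.65 in U87 and 0.42 in U251. These are descriptions over genes that share the same libraries. Of the 18 members under 42% GC, 5 rose and 4 fell in U87, with a median of -0.10, where all genes of that range had a median of 0.66. Between 42 and 50% GC, 2 of 12 rose and 8 fell (median -0.45, all genes 0.25). At 50% GC or more, none of the 10 tested members rose and 9 fell (median -1.60, all genes -0.71). In U251, 7 of the 18 members under 42% GC fell (median -0.40, all genes -0.17). Between 42 and 50% GC 4 of 12 fell there (median -0.26, all genes -0.05), and at 50% GC or more 1 of 10 (median -0.20, all genes 0.15). The shares of all genes called within these ranges were not taken, so the counts have no background beside them. The same rho was taken for each library, treated ones against the mean of their line's controls and each control against the other 2 controls. It was -0.655, -0.534 and -0.644 in the U87 libraries with artesunate and -0.403, 0.312 and 0.16 in the U87 controls. It was 0.441, 0.445 and 0.244 in the U251 libraries with artesunate and 0.14, -0.053 and -0.096 in the U251 controls. All 3 treated libraries of a line had the same sign, but they share a reference, the mean of the same controls. The deviations of the 3 controls of a line cancel out within each gene, so mixed signs among them follow from this measure. The signs alone therefore do not set treated libraries apart from controls.

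A correction of each library for GC content and transcript length brought rho over all genes to -0.07 in U87 and 0.02 in U251. With it, 31 members fell and 1, PMS2, rose in U87, where 25.9% of all genes fell and 19.7% rose. The members' median was then -0.81, against -0.05 over all genes. All 21 genes that fell without the correction also fell with it, as did PALB2, which rose without it. In U251, 11 members fell and none rose with the correction, where 4.2% of all genes fell and 4.97% rose. BARD1, BRCA1 and FANCL were no longer called there, and FANCA and XRCC1 were called in addition. Whether the GC trend arose in the cells or in the libraries was not tested.

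**Figure D2:**
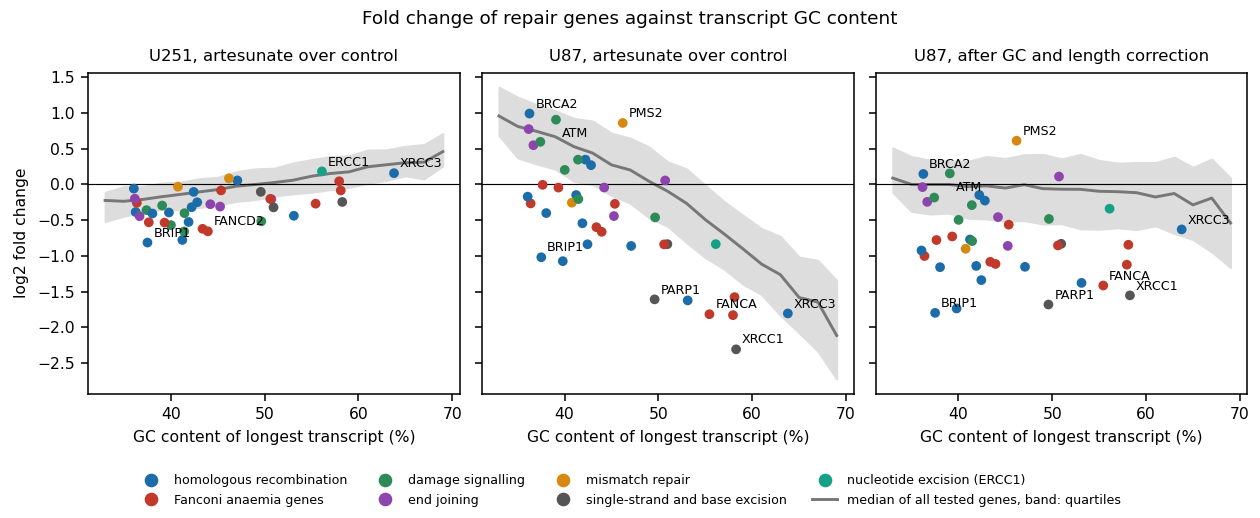
Log2 fold change with artesunate over control (y axis) against GC content of the longest transcript in percent (x axis) for the 40 tested repair genes (points, coloured by pathway) over the median and quartiles of all tested genes in bins of GC content (line and band), in U251, in U87, and in U87 after the GC and length correction. The line falls with GC content in U87, most repair genes lie below it, and after the correction PMS2 is the 1 member called as higher.

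In homologous recombination, 5 of 13 members fell in U251 (median log2 fold change -0.39), while 8 fell and 2 rose in U87 (median -0.54), against 4.26% of all genes that fell in U251 and 29.2% in each direction in U87. With the GC and length correction 3 fell in U251 (median -0.22), and 11 fell and none rose in U87 (median -1.14). BRIP1, a helicase that binds BRCA1 and is also a Fanconi gene, lies at chr17:61681266-61863521 (GRCh38). It had 28.1, 28.5 and 36.1 CPM in U251 with artesunate, against 52.5, 52.5 and 57.9 CPM in U251 controls. In U87 it had 14.1, 14.3 and 13.8 CPM with artesunate, against 32.2, 26.3 and 27.1 CPM in controls. The groups did not overlap in either line. BRIP1 fell by 0.81 ± 0.12 on the log2 scale in U251 (SE, adjusted p = 0.0019) and by 1.02 ± 0.12 in U87 (adjusted p = 2.5e-05), or by 1.80 in U87 with the GC and length correction.

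RAD54L, a motor protein of strand exchange in recombination, lies at chr1:46247688-46278473. Its levels were 28.2, 28.0 and 26.9 CPM in U251 with artesunate, against 38.5, 38.8 and 35.4 CPM in U251 controls, and 10.1, 13 and 14 CPM in U87 with artesunate, against 37.8, 39.3 and 37.1 CPM in U87 controls. The controls of the 2 lines overlapped, and the treated U87 libraries were the lowest of the 4 groups. It fell by 0.44 ± 0.11 in U251 (adjusted p = 0.038) and by 1.62 ± 0.12 in U87 (adjusted p = 7.0e-07). The difference between these effects, U251 minus U87, was 1.18 ± 0.16 (adjusted p = 0.00012). Of the exon bases of RAD54L, 25.1% are shared with LRRC41 on the opposite strand, and the counting strand is not given in the sources used here.

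BRCA1 and its partner BARD1 form a ubiquitin ligase that prepares broken ends for recombination. BRCA1, at chr17:43044295-43170245, had 27.0, 25.9 and 28.3 CPM in U251 with artesunate, against 36.4, 35.8 and 44.7 CPM in U251 controls. Its levels in U87 were 34.9, 29.7 and 41.4 CPM with artesunate, against 54.9, 43.4 and 56.3 CPM in controls. Treated libraries lay below the controls in both lines. BRCA1 fell by 0.52 ± 0.14 in U251 (adjusted p = 0.046) and by 0.54 ± 0.14 in U87 (adjusted p = 0.0063), or by 1.14 in U87 with the GC and length correction, when its U251 value was -0.44 (adjusted p = 0.052). BARD1, at chr2:214725646-214809711, had 37.6, 35.3 and 41.6 CPM in U251 with artesunate, against 50.4, 48.0 and 53.3 CPM in U251 controls, and 20.0, 18.2 and 21.2 CPM in U87 with artesunate, against 29.7, 24.5 and 24.2 CPM in U87 controls. Again no treated library reached a control of its line. BARD1 fell by 0.41 in U251 and by 0.40 in U87, or by 0.23 (not called) and 1.16 with the correction.

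BRCA2, at chr13:32315474-32400266, had 16.6, 21.9 and 27.1 CPM in U251 with artesunate, against 28.8, 30.3 and 26.7 CPM in U251 controls. The U87 libraries held 49.9, 54.9 and 53.3 CPM with artesunate, against 31.7, 23.1 and 24.7 CPM in U87 controls. The U251 groups overlapped by 1 treated library, and in U87 all treated libraries were above all controls. The log2 fold change was -0.39 ± 0.17 in U251 (adjusted p = 0.19, not called), and BRCA2 rose by 0.99 ± 0.17 in U87 (adjusted p = 0.00030). With the GC and length correction the U87 value was 0.15 and not called. PALB2, which joins BRCA1 to BRCA2, rose by 0.27 ± 0.10 in U87 (adjusted p = 0.031), with 49.9, 45.0 and 46.5 CPM with artesunate, against 41.1, 39.1 and 37.0 CPM in U87 controls. With the correction its sign turned, to -0.23.

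Of XRCC2, XRCC3, RAD51C and RAD51D, related proteins that act together in recombination, XRCC2, XRCC3 and RAD51D fell in U87 and RAD51C was called in neither line. XRCC2 averaged 22.4 ± 3.45 CPM in U87 with artesunate and 47.1 ± 4.77 CPM in U87 controls (SD, n = 3 each), a fall of 1.07, or of 1.74 with the correction. RAD51D averaged 14.2 ± 1.79 CPM with artesunate and 25.7 ± 0.644 CPM in controls, with a log2 fold change of -0.86. XRCC3 had 7.58, 21.1 and 10.6 CPM in U87 with artesunate, against 40.0, 48.8 and 48.5 CPM in U87 controls. Library 2 was the highest of the treated ones, and all 3 lay below the controls. The fall of XRCC3 was 1.81 ± 0.29 (adjusted p = 0.00021), and 0.63 with the correction, at a GC content of 63.8%, the highest of the members. XRCC3 shares 76.7% of its exon bases with KLC1 on the opposite strand, a gene with 35184 counts over the 12 libraries against 5198 for XRCC3, so its counts are uncertain. Without XRCC3, 7 of 12 recombination members fell in U87 with a median of -0.47.

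BLM, the helicase that unwinds recombination intermediates, fell in U251 and was not called in U87. It averaged 14.6 ± 1.17 CPM in U251 with artesunate and 25.1 ± 1.64 CPM in U251 controls, and its log2 fold change was -0.78 ± 0.14 (adjusted p = 0.0055). The difference of its effects between the lines was -0.63 ± 0.19 (adjusted p = 0.017), but 0.12 with the GC and length correction. EXO1, a nuclease that resects ends, fell in U87, where it averaged 15.0 ± 3.07 CPM with artesunate and 26.8 ± 0.819 CPM in controls (log2 fold change -0.84, and -1.34 with the correction). RAD51AP1, which stimulates strand exchange, was called in neither line and overlapped between groups in both, but was called as lower in U87 with the correction (-0.92, adjusted p = 0.0017).

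**Figure D3:**
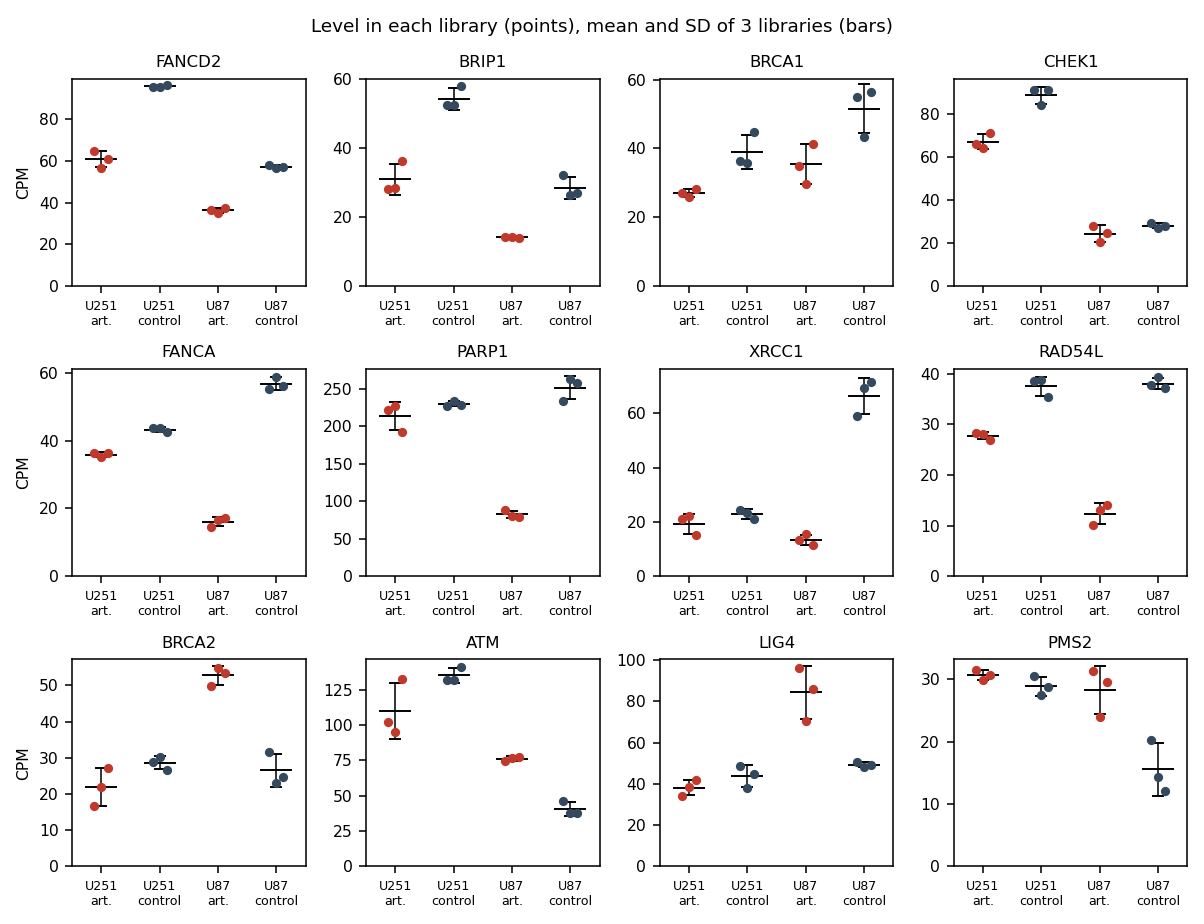
CPM (y axis, from 0) of 12 repair genes in each library (points), with mean and SD of 3 libraries (bars), in U251 with artesunate, U251 control, U87 with artesunate and U87 control from left to right. FANCD2 and BRIP1 are lower with artesunate in both lines, FANCA, PARP1, XRCC1 and RAD54L drop furthest in U87, and BRCA2, ATM, LIG4 and PMS2 are higher with artesunate in U87, before any GC correction.

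Of the 10 Fanconi genes, 3 fell in U251 (median -0.26) and 7 in U87 (median -0.63), and none rose. Over all genes, 4.26% fell and 4.09% rose in U251, and 29.2% fell and 29.2% rose in U87. After the correction 3 fell in U251 (median -0.28) and all 10 in U87 (median -0.93), where 4.2% and 25.9% of all genes fell. FANCD2, which receives the ubiquitin mark that starts crosslink repair, lies at chr3:10026414-10101930. It had 64.7, 56.8 and 61.0 CPM in U251 with artesunate, against 95.7, 95.4 and 96.4 CPM in U251 controls. In U87 it had 36.4, 34.9 and 37.4 CPM with artesunate, against 58.0, 56.7 and 57.2 CPM in controls. The libraries of a group lay close together and the groups stood well apart in both lines. FANCD2 fell by 0.66 ± 0.07 in U251 (adjusted p = 0.00033) and by 0.66 ± 0.07 in U87 (adjusted p = 1.4e-05), and by 0.58 and 1.11 with the GC and length correction. It had the smallest p of the Fanconi genes in U251.

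FANCI, the partner of FANCD2, also fell in both lines. It averaged 140 ± 12.9 CPM in U251 with artesunate and 216 ± 13.5 CPM in U251 controls, and 87 ± 10.1 CPM in U87 with artesunate and 132 ± 1.55 CPM in U87 controls. The falls were 0.62 ± 0.10 (adjusted p = 0.0031) in U251 and 0.60 ± 0.10 (adjusted p = 0.00029) in U87, the second being 1.08 with the correction. FANCL, the ubiquitin ligase that marks both, was the 1 core complex gene that fell in U251, averaging 21.4 ± 1.35 CPM with artesunate and 31.0 ± 2.43 CPM in controls. Its log2 fold change there was -0.53 ± 0.11 (adjusted p = 0.013), and -0.31 with the correction, when it was not called. Of the exon bases of FANCL, 18.7% are shared with VRK2 on the opposite strand.

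The core complex genes, 7 of the 10 (FANCA, FANCB, FANCC, FANCE, FANCF, FANCG and FANCL), had 5 members that fell in U87 (median -0.84). Over all genes, 29.2% fell there. FANCA, at chr16:89737549-89816657, had 36.4, 35.1 and 36.3 CPM in U251 with artesunate, against 43.7, 43.7 and 42.5 CPM in U251 controls. Its levels in U87 were 14.6, 16.7 and 17.2 CPM with artesunate, against 55.4, 59.0 and 56.2 CPM in controls. No treated library overlapped a control of its line. FANCA fell by 1.82 ± 0.09 in U87 (adjusted p = 4.5e-08) and by 1.41 with the correction, and it was not called in U251. The effect in U251 minus that in U87 was 1.55 ± 0.12 (adjusted p = 4.0e-06). Of its exon bases, 23.6% are shared with ZNF276 on the opposite strand.

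FANCE, which docks FANCD2 to the core complex, had 1.53, 3.73 and 2.95 CPM in U87 with artesunate, against 9.09, 9.67 and 10.5 CPM in U87 controls. The first of these libraries held 21 counts of FANCE, the lowest of any tested member in any library. FANCE fell by 1.83 ± 0.23 (adjusted p = 3.5e-05), or by 1.12 with the correction. FANCG averaged 15.6 ± 3.37 CPM in U87 with artesunate and 46.4 ± 4.51 CPM in U87 controls, a fall of 1.58, or of 0.84 with the correction. FANCC averaged 11.2 ± 0.640 CPM with artesunate and 20.1 ± 1.04 CPM in controls, a fall of 0.84. FANCF fell by 0.27 (0.56 with the correction). FANCB and FANCM, a translocase that recruits the complex to stalled forks, were called in neither line, and both were called as lower in U87 with the correction.

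In damage signalling, ATR, CHEK1 and CHEK2 fell in U251 and none rose (median of the 6 members -0.46), while in U87 CHEK2 fell and ATM and NBN rose (median 0.28, and -0.39 with the GC and length correction). The shares of all genes were 4.26% fallen and 4.09% risen in U251, and 29.2% in each direction in U87. ATR, at chr3:142449235-142578826, had 33.1, 33.7 and 42.4 CPM in U251 with artesunate, against 51.7, 54.1 and 56.4 CPM in U251 controls. The U87 libraries held 97.4, 83.9 and 95.8 CPM with artesunate, against 87.7, 75.7 and 77.1 CPM in U87 controls. All treated U251 libraries were below their controls, and the U87 groups overlapped. ATR fell by 0.57 ± 0.11 in U251 (adjusted p = 0.010). Its effect in U251 minus that in U87 was -0.77 ± 0.16 (adjusted p = 0.0016), but 0.041 with the correction.

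ATM, at chr11:108222484-108369102, had 102, 95.1 and 133 CPM in U251 with artesunate, against 132, 132 and 141 CPM in U251 controls. In U87 it had 74.6, 76.6 and 77.6 CPM with artesunate, against 46.4, 37.7 and 37.9 CPM in U87 controls. Library 3 of the treated U251 samples lay among the controls, and the U87 groups were apart. ATM rose by 0.91 ± 0.13 in U87 (adjusted p = 7.3e-05), and had 0.15 with the correction, when it was not called. In U251 the value was -0.30 ± 0.12 (adjusted p = 0.17), and the fall was called without that library (adjusted p = 0.035, range over all alternatives 0.035 to 0.46). NBN, which with RAD50 forms the complex that brings ATM to breaks, rose in U87 with 104, 82.6 and 110 CPM with artesunate, against 71.4, 63.1 and 61.2 CPM in controls. Its log2 fold change was 0.60 ± 0.13 (adjusted p = 0.0015), and -0.18 with the correction. RAD50 was called in neither line, and 79.7% of its exon bases are shared with AC116366.3 on the same strand.

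CHEK1, the kinase that ATR activates, lies at chr11:125625136-125676255. It had 66.1, 64.0 and 71.0 CPM in U251 with artesunate, against 90.9, 84.0 and 90.8 CPM in U251 controls, and 27.9, 20.2 and 24.7 CPM in U87 with artesunate, against 29.2, 26.8 and 28.0 CPM in U87 controls. The U251 groups were apart, and in U87 1 treated library lay among the controls. CHEK1 fell by 0.40 ± 0.11 in U251 (adjusted p = 0.043). In U87 the log2 fold change was -0.21 ± 0.11 (adjusted p = 0.13), not called, and -0.79 and called with the GC and length correction. CHEK2, the kinase that ATM activates, averaged 6.86 ± 0.276 CPM in U251 with artesunate and 9.81 ± 0.962 CPM in its controls, and 10.4 ± 0.865 CPM in U87 with artesunate and 14.3 ± 1.96 CPM in its controls. It fell by 0.52 in U251 and by 0.46 in U87.

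Among the end-joining genes PRKDC fell in both lines, and LIG4 and XRCC4, the ligase and its partner, rose in U87. Of the 5 members, 2 fell and none rose in U87 with the correction, where 25.9% of all genes fell and 19.7% rose. PRKDC, the catalytic subunit of DNA-PK, had 542, 564 and 554 CPM in U251 with artesunate, against 701, 682 and 674 CPM in U251 controls. Its levels in U87 were 654, 600 and 661 CPM with artesunate, against 911, 847 and 844 CPM in controls. Groups were apart in both lines. PRKDC fell by 0.31 ± 0.06 in U251 (adjusted p = 0.012) and by 0.44 ± 0.06 in U87 (adjusted p = 8.9e-05), the second being 0.86 with the GC and length correction.

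LIG4, at chr13:108207439-108218368, had 34.4, 38.3 and 42.1 CPM in U251 with artesunate, against 48.8, 38.2 and 44.8 CPM in U251 controls, and 96.3, 70.7 and 86 CPM in U87 with artesunate, against 50.7, 48.2 and 49.0 CPM in U87 controls. The U251 groups overlapped, and in U87 the treated libraries were all higher. LIG4 rose by 0.77 ± 0.13 in U87 (adjusted p = 0.00027), but its value was -0.037 with the correction. XRCC4 rose by 0.55 ± 0.19 (adjusted p = 0.029), and its value was -0.24 with the correction. The Ku genes XRCC5 and XRCC6, which bind the broken ends, were called in neither line, and XRCC5 was called as lower in U87 with the correction (-0.46, adjusted p = 0.00056). They were the most abundant of the 41 transcripts by FPKM, which allows for transcript length, in each of the 4 groups: XRCC6 averaged 102.6 ± 9.09 FPKM in U87 with artesunate and 104.0 ± 3.32 FPKM in U87 controls, and 72.3 ± 2.27 FPKM in U251 with artesunate and 85.5 ± 2.59 FPKM in U251 controls.

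The single-strand break and base excision genes had the lowest median of the pathways in U87, where all 3 fell with a median of -1.61 (-1.55 with the GC and length correction), and none was called in U251. Over all genes, 29.2% fell in U87. PARP1, which detects strand breaks, lies at chr1:226360691-226408079. It had 222, 227 and 193 CPM in U251 with artesunate, against 228, 233 and 229 CPM in U251 controls. The U87 libraries held 88.3, 79.9 and 79.3 CPM with artesunate, against 234, 262 and 258 CPM in controls. Treated libraries in U87 were far below every other library. PARP1 fell by 1.61 ± 0.08 in U87 (adjusted p = 8.0e-08), and its value in U251 was -0.10 ± 0.08 (adjusted p = 0.50). The difference between the effects was 1.5 ± 0.12 (adjusted p = 4.4e-06), and 1.56 with the correction.

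XRCC1, the scaffold that PARP1 brings to breaks, lies at chr19:43543040-43580473. It had 20.9, 22.0 and 15.1 CPM in U251 with artesunate, against 24.4, 23.4 and 20.9 CPM in U251 controls, and 13.4, 15.3 and 11.5 CPM in U87 with artesunate, against 58.9, 69.1 and 71.4 CPM in U87 controls. The U251 groups overlapped, and in U87 the controls stood above all other libraries. XRCC1 fell by 2.31 ± 0.16 in U87 (adjusted p = 5.2e-07), or by 1.55 with the correction. OGG1, the glycosylase that removes oxidised guanine, had 20.0, 24.7 and 19.6 CPM in U251 with artesunate, against 28.6, 21.1 and 30.6 CPM in U251 controls, and 10.1, 11.5 and 8.72 CPM in U87 with artesunate, against 17.5, 16.7 and 19.9 CPM in U87 controls. Its groups overlapped in U251 and were apart in U87. OGG1 fell by 0.84 ± 0.17 in U87 (adjusted p = 0.0011), and was not called in U251 (-0.32 ± 0.16, adjusted p = 0.26). OGG1 shares 25% of its exon bases with CAMK1 on the opposite strand.

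In mismatch repair, PMS2 rose in U87 and MSH6, which recognises mispaired bases, was called in neither line. MSH6 was called as lower in U87 with the GC and length correction (-0.90, adjusted p = 0.00011), against -0.26 without it. Of the exon bases of MSH6, 16.2% are shared with FBXO11 on the opposite strand. FBXO11 had 15878 counts over the 12 libraries, against 11646 for MSH6, and a log2 fold change of 1.22 in U87. PMS2, a nuclease subunit of mismatch repair, lies at chr7:5973239-6009125. It had 31.5, 29.8 and 30.6 CPM in U251 with artesunate, against 30.5, 27.4 and 28.7 CPM in U251 controls, and 31.3, 23.9 and 29.6 CPM in U87 with artesunate, against 20.2, 14.4 and 12.1 CPM in U87 controls. The U87 groups were apart, and the treated U87 libraries lay close to the U251 ones. PMS2 rose by 0.86 ± 0.17 in U87 (adjusted p = 0.00099), and by 0.61 with the GC and length correction. In U251 the value was 0.09 ± 0.17 (adjusted p = 0.82). Its level is uncertain, because reads of near-identical copies could be split: PMS2 had 4787 counts over the 12 libraries, beside 3070 for PMS2CL and 1217 for PMS2P1.

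MGMT, at chr10:129467184-129768007, had 0 counts in every library of both lines, with and without artesunate. A count of 0 allows up to 3 counts, or 0.173 to 0.220 CPM depending on the library, a limit that covers counting error only. ERCC1, at chr19:45407333-45478828, had 86.9, 95.1 and 79.3 CPM in U251 with artesunate, against 75.2, 78.0 and 77.0 CPM in U251 controls, and 73.7, 89.4 and 69.7 CPM in U87 with artesunate, against 127, 141 and 148 CPM in U87 controls. The treated libraries lay above the controls in U251 and below them in U87, with no overlap in either line. ERCC1 fell by 0.84 ± 0.11 in U87 (adjusted p = 4.3e-05), or by 0.34 with the correction, and had 0.18 ± 0.11 in U251 (adjusted p = 0.33), which was not called. Of its exon bases, 28.6% are shared with CD3EAP on the opposite strand, whose own log2 fold change in U87 was -2.71.

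**Figure D4:**
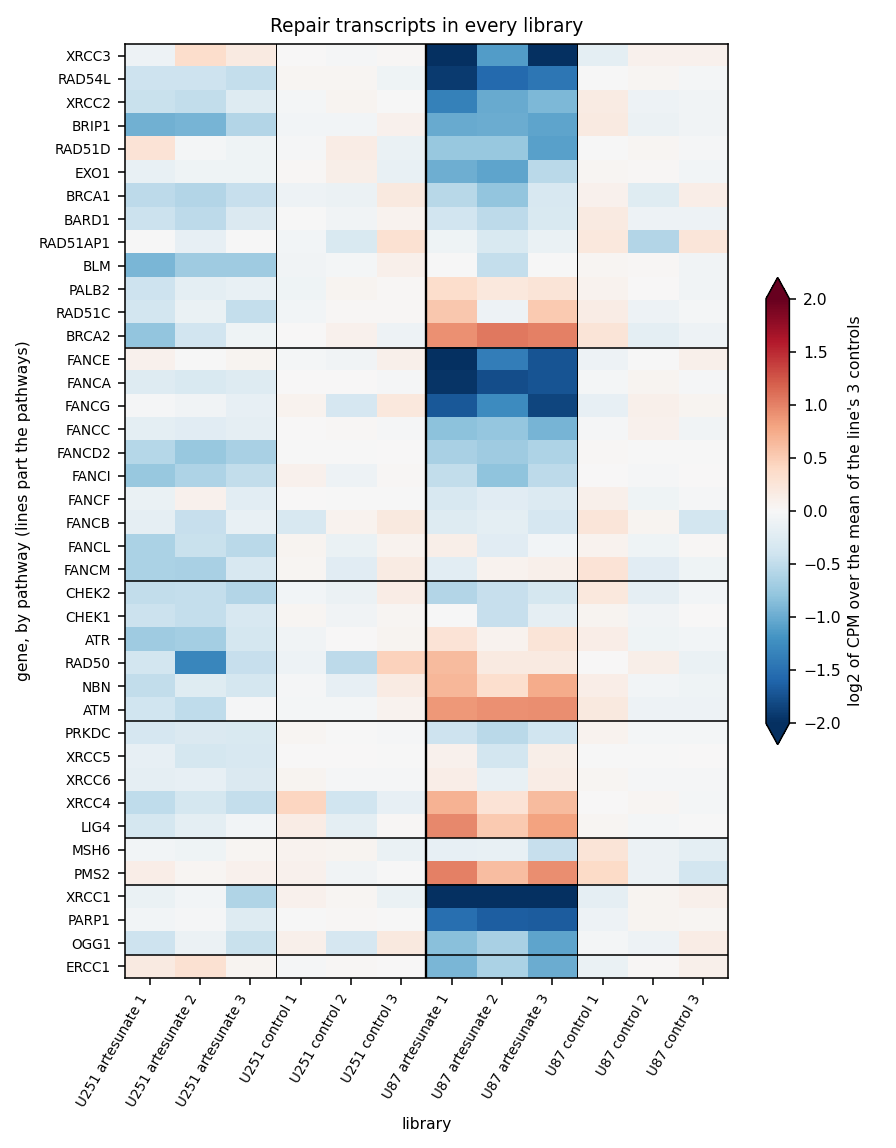
Log2 of CPM over the mean of the line's 3 controls (colour, clipped at 2.0 on either side) for the 40 tested repair genes (rows, by pathway) in each of the 12 libraries (columns). Most cells of the U251 artesunate libraries are pale blue, while the U87 artesunate libraries range from dark blue (XRCC1, FANCA, PARP1) to red (BRCA2, ATM, LIG4, PMS2).

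The effect of artesunate differed between the lines for 24 of the 40 members by the test of the difference, U251 minus U87, where 49.4% of all genes did. For 12 the difference was positive, where 24.1% of all genes were, and for 12 negative, where 25.3% were. All 12 positive ones fell in U87, and XRCC1 (2.06), XRCC3 (1.96), FANCE (1.87), FANCA (1.55), PARP1 (1.5), FANCG (1.49), RAD54L (1.18) and ERCC1 (1.02) had the largest differences. With the GC and length correction 11 of these 12 were still called, the exception being XRCC3, and 23 members in all were positive, where 17.5% of all genes were. The negative ones included BRCA2 (-1.38 ± 0.24, adjusted p = 0.00053), ATM (-1.20 ± 0.18, adjusted p = 0.00018) and LIG4 (-0.97 ± 0.18, adjusted p = 0.00092). None of the 12 negative differences was called as negative with the correction, FANCL was then called as positive, and XRCC6 was then the 1 negative member, where 12.2% of all genes were.

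Without artesunate the lines themselves differed in 23 of the 40 members, where 64.8% of all genes did: 11 were higher in U251 controls than in U87 controls, where 32.5% of all genes were, and 12 were lower, where 32.3% were. ATM and CHEK1 were the furthest apart on the high side before any GC correction. With the GC and length correction the highest value was 1.23 among the 6 damage signalling members and 1.35 among the 10 Fanconi genes. ATM had 132, 132 and 141 CPM in U251 controls, against 46.4, 37.7 and 37.9 CPM in U87 controls, a difference of 1.73 ± 0.13 on the log2 scale (adjusted p = 2.2e-07). CHEK1 differed by 1.66 ± 0.11 (adjusted p = 9.6e-08), with no overlap between the controls of the lines. BARD1 followed at 0.95 ± 0.11 (adjusted p = 1.2e-05) and BRIP1 at 0.93 ± 0.12 (adjusted p = 2.7e-05), and with the GC and length correction they had 0.33 and 0.27 and were still called.

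On the low side, XRCC1 had -1.54 ± 0.15 on the same scale (adjusted p = 3.5e-06), U251 controls over U87 controls. PALB2 had 18.7, 20.8 and 20.3 CPM in U251 controls, against 41.1, 39.1 and 37.0 CPM in U87 controls, or -0.97 ± 0.10 (adjusted p = 3.7e-06). XRCC3, with 23.8, 23.1 and 23.9 CPM in U251 controls, against 40.0, 48.8 and 48.5 CPM in U87 controls, had -0.96 ± 0.28 (adjusted p = 0.0095), and -0.60 with the correction. ERCC1 had -0.85 ± 0.11 (adjusted p = 2.4e-05). The U251 libraries were below the U87 ones for each of these 4 genes without overlap. With the correction 11 members were higher and 18 lower in U251, where 32.5% and 34.2% of all genes were. Of the called members, BLM and XRCC6 were no longer called then.

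**Figure D5:**
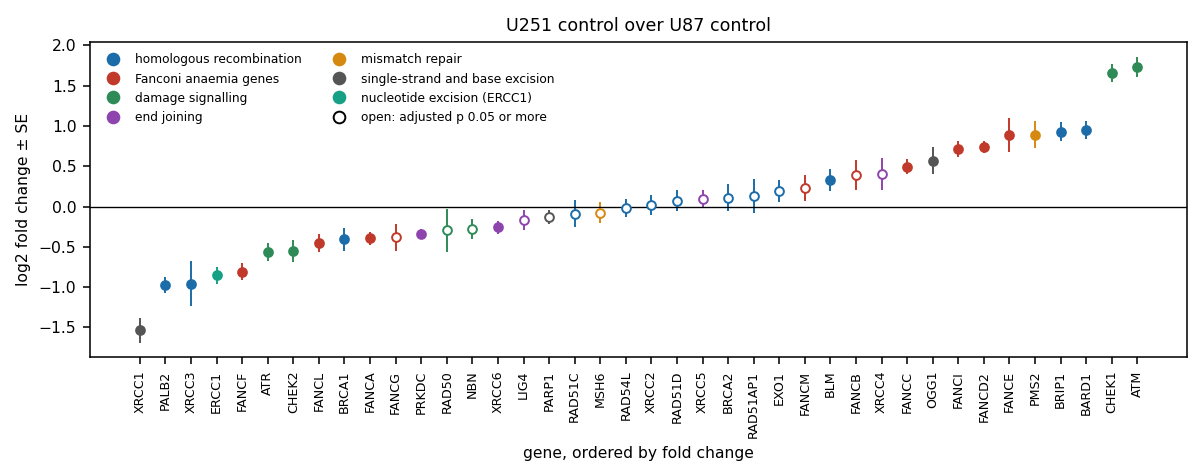
Log2 fold change of U251 control over U87 control (y axis, ± SE from the edgeR fit) for the 40 tested repair genes, ordered by value and coloured by pathway; filled points were called. XRCC1 is lowest at -1.54, and CHEK1 (1.66) and ATM (1.73) stand above the rest, before any GC correction.

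Most calls in U251 were lost when 1 library or another was left out, several of them for many libraries in turn. Leaving out 1 library at a time, the number of members called in U251 lay between 4 (without U251 artesunate 1) and 16. It was 6 without U251 artesunate 2, 6 without U251 control 1, 7 without U251 control 2, 7 without U251 control 3 and 7 without U87 control 3. The calls over all genes in U251 moved as well. With all libraries 701 genes rose and 730 fell, against 340 and 312 without U251 artesunate 1, and 1328 and 1254 without U87 artesunate 2. BLM, BRIP1, FANCD2 and FANCI were called in U251 with any 1 library left out and under each of the other alternatives tried. PRKDC was lost without U251 artesunate 1 (adjusted p = 0.052, range over all alternatives 6.4e-06 to 0.052), ATR without U251 artesunate 1 or 2 (0.052 each, range 6.1e-05 to 0.052), and FANCL without U251 artesunate 1 or U251 control 1. BARD1, BRCA1, CHEK1, CHEK2 and RAD54L were lost without any of at least 7 of the 12 libraries, with adjusted p up to 0.15, 0.16, 0.14, 0.15 and 0.12. In U87, CHEK2 was lost without U87 control 1 (adjusted p = 0.052, range 0.0043 to 0.052), XRCC4 without any of 5 libraries of that line, PALB2 without any of 5 libraries and FANCF without any of 6, while the other 24 calls held with any 1 library left out.

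Other repair genes, 87 chosen by pathway outside the 41, were all tested. In U251 none rose and 12 fell (median -0.15), where 4.09% of all genes rose and 4.26% fell. In U87 21 rose and 38 fell (median -0.21), where 29.2% of all genes did in each direction. With the GC and length correction 2 rose and 16 fell in U251, where 4.97% and 4.2% of all genes did, and 12 rose and 40 fell in U87, where 19.7% and 25.9% did. By pathway in U87, 3 of 14 other Fanconi pathway genes rose and 9 fell, 1 of 19 other recombination genes rose and 8 fell, and 5 of 13 other signalling genes rose and 7 fell. Of 14 other base excision genes 2 rose and 6 fell, of 9 other end-joining genes 4 rose and 4 fell, of 13 other genes of damage reversal and nucleotide excision 5 rose and 3 fell, and of 5 other mismatch genes 1 rose and 1 fell. POLQ, the polymerase of an alternative end-joining route, had the smallest p among those that fell in U251 (log2 fold change -0.52 ± 0.09, adjusted p = 0.0037). CLSPN, the adaptor through which ATR activates CHEK1, fell by 1.63 ± 0.13 in U87 (adjusted p = 1.0e-06), and RAD17, a loader of the checkpoint clamp, rose by 1.48 ± 0.10 (adjusted p = 3.0e-07), or by 0.86 with the correction.

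Lists of cell cycle genes were counted beside the members. Of 24 DNA replication genes, 18 fell in U251 (median -0.46) and 23 in U87 (median -1.34), where 4.26% and 29.2% of all genes fell. Of 18 mitosis genes, 15 fell in U251 (median -0.69) and 10 in U87 (median -0.46), and none of either list rose in either line. All 18 mitosis genes fell in U87 with the correction (median -0.86), where 25.9% of all genes fell. The part of cell cycle changes in the fall of the repair genes was not tested. The authors' deposited table, whose fold changes were also made with edgeR, had the same sign as found here for all 40 members in U251 and in U87, with differences of at most 0.0036 and 0.0503, and for 39 of 40 between the controls once the sign of its control column, which is U87 over U251, was turned.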

How the data were processed

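RNA of 12 libraries was measured by sequencing. Per the submitters' processing notes, the tools used upstream were fastp, HISAT2 2.1.0, StringTie 1.3.3b and edgeR 3.30.3. The counting step and its strandedness are not given in the sources used here. The authors deposited 1 table of 58302 genes with whole-number counts per library, not normalized per the file headers, FPKM values, and the log2 fold changes of their own comparisons. Gene names and GRCh38 positions came from that table, and GC content and length from the longest GENCODE 29 transcript, where 38 of the 41 members had the same position.

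Counts were tested in R 4.3.3 with edgeR 4.0.16 (quasi-likelihood test, TMM factors, filterByExpr with a minimum count of 10 and total of 15, Benjamini-Hochberg adjustment over the 17150 genes kept). The fit held all 12 libraries with 1 mean per group and a common biological coefficient of variation of 0.183. The SE was derived from the fold change and the F statistic of its test. CPM use TMM-scaled library totals. The scripts were tested on simulated data. Alternatives were library totals, DESeq2 1.42.0, no filter, only the groups compared, a replicate block, a GC and length correction (splines with 5 degrees of freedom per library, as offsets) with and without the block, limma 3.58.1 on log2(FPKM + 1) and log2(FPKM + 0.1), and leaving out each library.

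The members and all lists were chosen with earlier results of these data known. Genes given in full were, per pathway, those with the smallest p in each line and in the difference between lines, BRCA1, BRCA2, FANCD2, CHEK1, ATM, PARP1, PRKDC and MGMT, and the 4 largest called control differences in each direction. Other members were named as called or not, and many were also given with CPM, fold changes or adjusted p outside this rule.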

Additional observations from a re-analysis of the deposited data

Results flagged for a closer look

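For 24 members the effect of artesunate in U251 minus that in U87, on the log2 scale, was called by the test of the difference (edgeR quasi-likelihood, adjusted p under 0.05), and each is listed because the same contrast differed between the lines. Dose and line cannot be told apart in these differences. The same test called 49.4% of all genes, 24.1% as positive and 25.3% as negative.

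In recombination the difference was -1.38 for BRCA2, -0.67 for RAD51C, -0.63 for BLM and -0.52 for PALB2. It was 0.68 for XRCC2, 0.73 for EXO1, 0.92 for RAD51D, 1.18 for RAD54L and 1.96 for XRCC3. Among the Fanconi genes FANCL had -0.49, FANCC 0.64, FANCG 1.49, FANCA 1.55 and FANCE 1.87. In damage signalling ATM had -1.20, RAD50 -1.0, NBN -0.96 and ATR -0.77. In end joining XRCC4 had -0.99 and LIG4 -0.97, and in mismatch repair PMS2 had -0.77. ERCC1 had 1.02, PARP1 1.5 and XRCC1 2.06.

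With the GC and length correction none of the 12 negative differences was called as negative, while 11 of the 12 positive ones were still called. Over all genes, 17.5% were then called as positive and 12.2% as negative. RAD50 and RAD51C were lost without any of 8 and 9 libraries, with adjusted p up to 0.12 and 0.084. FANCL was lost without U251 control 1 (adjusted p = 0.058, range over all alternatives 0.0047 to 0.096), and BLM without U87 control 3 (adjusted p = 0.051, range 0.00084 to 0.61).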

How the results depend on the processing

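The direction of every called member in U251 was the same under all alternatives. The number called there was 12, against 7 with no filter on low counts, and between 4 and 16 with 1 library left out. In U87 it was 28, and 25 to 29 with 1 library left out, in the difference between lines 24, and 21 to 28, and between the controls 23, and 21 to 25. The GC and length correction, without and with the replicate block, reversed 4 rises in U87: LIG4 to -0.037 and -0.039, NBN to -0.18 and -0.19, PALB2 to -0.23 and -0.23, and XRCC4 to -0.24 and -0.25. It also reversed 7 negative differences between lines: ATR to 0.041 and 0.040, BLM to 0.12 and 0.12, FANCL to 0.42 and 0.42, LIG4 to 0.071 and 0.078, NBN to 0.028 and 0.032, PALB2 to 0.10 and 0.10, and XRCC4 to 0.062 and 0.088. Between the controls BLM turned to -0.14 and -0.15. The cause was not tested.

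Over all genes, 701 rose and 730 fell in U251, against 1083 and 1245 with DESeq2, 516 and 348 with no filter, 1481 and 1411 with only the groups compared, 617 and 976 with library totals, and 821 and 1333 with limma on log2(FPKM + 1). These numbers were 340 and 312 without U251 artesunate 1, and 1328 and 1254 without U87 artesunate 2. In the difference between lines 4132 were positive and 4346 negative, against 3007 and 2091 with the GC and length correction. With the replicate number as a block 10 members were called in U251, 6 rose and 20 fell in U87, 12 differed in each direction between lines, and 10 were higher and 12 lower between the controls. Of all 17150 genes, 612 rose and 545 fell in U251 with the block, and 4829 rose and 4931 fell in U87. Between lines 4057 were then positive and 4231 negative, and between the controls 5502 were higher and 5470 lower. Deviations of treated and control libraries with the same number correlated at -0.009 to 0.053, and those with different numbers at -0.085 to 0.044. Whether the numbers pair the samples was not tested. Members that were not called were followed through the alternatives only for the genes given in full in the 2 treatment comparisons, a choice made after their values were seen, because near 0 the sign of the others turned often. The lowest count of a tested member in any library was 21, for FANCE.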
